A study of Homo sapiens with 5 samples.

Results

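The genes described here encode the SR proteins and the heterogeneous nuclear ribonucleoproteins (hnRNPs), the 2 large families of RNA-binding proteins that steer pre-mRNA splicing. They were chosen by symbol from a table of ribosome footprint counts: every SRSF gene, the SR-like genes TRA2A and TRA2B, every HNRNP gene, the polypyrimidine tract binding genes PTBP1 to PTBP3, SYNCRIP and RBMX. This gave 38 of 14042 gene symbols, 13 SR proteins and 25 hnRNPs or related proteins, and none of the 38 had more than 1 row. HNRNPC, HNRNPH1 and SRSF5 were not analysed here. Footprints, the RNA pieces that a translating ribosome shields from nuclease, came from HAP1, an established and nearly haploid cell line that descends from a human chronic myeloid leukaemia. The labels call all cells haploid and name no treatment. Wild type (n = 2 libraries) was compared with METTL18 knockout (n = 3), and the comparison asks how the loss of METTL18, a methyltransferase that modifies a histidine of the ribosomal protein RPL3, goes with ribosome occupancy. The labels do not give the mutation, the number of knockout clones or whether libraries came from separate cultures, so p-values reflect how much these libraries vary, and that variation may be technical. More mRNA and more ribosomes per mRNA both raise a gene's count, and they cannot be told apart here. Nor can fewer cells that express a gene and less RNA per cell.

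SR proteins carry RNA recognition motifs and a tail rich in arginine and serine. They bind exonic enhancers, recruit the spliceosome, and are moved and switched by phosphorylation of that tail. hnRNPs coat nascent transcripts through RNA recognition or KH domains, often beside glycine-rich stretches, and many of them repress exons, stabilise mRNA or shuttle to the cytoplasm. Members of both families commonly limit their own amounts by splicing in a poison exon that sends the mRNA to nonsense-mediated decay, and paralogs cross-regulate each other in the same way.

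Wild-type libraries held 4887380 to 5302160 counts and knockout libraries 16339574 to 17629199, so depth runs with genotype (3.33-fold on average) and cannot be told apart from it. Levels are given in CPM, counts scaled to the size of the library with TMM factors, either for each library or as the group's mean ± SD (n = 2 and n = 3). Tests are edgeR quasi-likelihood tests of the knockout against the wild type over 11335 genes, with Benjamini-Hochberg adjusted p under 0.05 as the threshold. METTL18 itself had 33 and 32 counts in wild-type and 33, 32 and 34 in the deeper knockout libraries, and stood at 5.56 and 5.85 CPM in wild-type cells and 2.18, 1.97 and 2.16 CPM in knockout cells (log2 fold change -1.44, adjusted p = 2e-06, edgeR). Of 10 haematopoietic markers, GATA1, HBG1, MPO, PTPRC and SPI1 were not analysed here, CD33 and KLF1 had 0 counts in every library, CD34 was at 0 in the knockout, and the summed level was 7.13 to 10.9 CPM in wild-type and 1.90 to 2.58 CPM in knockout libraries. The 6 mesenchymal markers summed to 296 to 317 CPM in wild-type and 1173 to 1219.5 CPM in knockout libraries. Of these VIM rose (from 129 ± 12.3 to 1069 ± 24.4 CPM) and FN1 fell (from 160.3 ± 0.969 to 96.3 ± 2.53 CPM). The 4 measured epithelial markers summed to 142 to 151 CPM in wild-type and 183 to 186 CPM in knockout libraries. Most of this was KRT18 (145 ± 6.13 and 171 ± 1.85 CPM). CDH1 rose from 0.0842 ± 0.119 to 12.4 ± 0.803 CPM, EPCAM did not pass and KRT19 was too low to be tested. The 4 measured neural markers summed to 42.3 to 46.3 CPM in wild-type and 351 to 382 CPM in knockout libraries. In the neural list TUBB3 rose (from 30.8 ± 0.304 to 361 ± 16.7 CPM), while MAP2 (-3.91) and NCAM1 (-5.94) fell on the log2 scale, and DCX had 0 counts in the wild type. These sums differ between the genotypes, and their part in the results was not tested.

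The families share coding features that matter when short footprints are counted, so a few stretches are shown first. In the 13 SR coding sequences a median of 38.7% of codons stood for arginine or serine (21.3% in SRSF9 to 47.2% in SRSF8). In 24 hnRNP and related sequences the median was 13.4% (5.61% to 18.1%). The lowest value is that of RBMX, from a transcript with only 588 coding bases, and the next was 9.34% in HNRNPAB. Glycine codons went the other way, with medians of 7.56% and 12.2%. To show these repeats, the 20 codons richest in arginine and serine of 4 SR genes are printed 5′ to 3′ from GENCODE release 29 (GRCh38), with arginine codons in capitals and all others in lower case.
SRSF2: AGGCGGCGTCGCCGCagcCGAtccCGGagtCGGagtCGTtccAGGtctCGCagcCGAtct
SRSF4: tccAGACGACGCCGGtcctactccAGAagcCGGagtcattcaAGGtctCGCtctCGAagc
SRSF7: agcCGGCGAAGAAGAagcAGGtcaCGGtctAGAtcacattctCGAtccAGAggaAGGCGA
TRA2B: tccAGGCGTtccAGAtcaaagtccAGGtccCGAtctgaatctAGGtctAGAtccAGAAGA
The SRSF2 window is coding bases 367 to 426, counted from the A of the start codon (chromosome 17, 76736401 to 76736460, minus strand, coding exon 2). That of SRSF7 covers the same coding positions in its own gene (chromosome 2, 38748614 to 38749548, minus strand, coding exons 3 to 4). Those of SRSF4 (chromosome 1, 29150177 to 29154739, minus strand, coding exons 4 to 5) and TRA2B (chromosome 3, 185925611 to 185926644, minus strand, coding exons 2 to 3) also span an exon junction. The arginine codons are spelled with different triplets within and between genes, so these repeats are alike in protein more than in bases. Of the windows of 28 bases, the shortest footprint selected, 98.9% to 100% in these 4 coding sequences occurred in no transcript of another locus. Other SR genes share more. This value was 52.1% in SRSF6, 62.4% in SRSF3, 63.6% in SRSF10, 84.9% in SRSF8, 85.2% in SRSF9 and 96.2% or more in the rest.

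Some hnRNP genes share more of their sequence with other loci than any of these SR genes. HNRNPA1L2 is a single-exon copy of HNRNPA1, and over 960 coding bases they differed at 15 positions (98.4% identity), with an identical run of 174 bases. In HNRNPA1 3% of the 28-base windows were found at no other locus, because 82 other loci, 78 of them pseudogenes, share the rest. By contrast the whole coding sequence of HNRNPA2B1 and of HNRNPA0 was unique by this measure. The share was 6.05% in HNRNPA3, 23.0% in HNRNPA1L2, 29.8% in HNRNPK, 31.7% in RBMX, 54.4% in SYNCRIP and 60.2% in HNRNPL. Against only the coding sequences of the counted transcripts, it was 37.6% in HNRNPA1 and HNRNPA1L2 and 39.8% in RBMX. By that measure HNRNPA3, HNRNPK, HNRNPL, SYNCRIP, SRSF3 and SRSF6 were at 100%. The sources used here do not say how reads that match several places were counted. The levels of genes with shared windows, SR genes among them, are uncertain. Of 37 members with a coding sequence, 20 had at least 95% of their windows at no other locus, pseudogenes included.

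SR protein and hnRNP genes were mostly higher in the METTL18 knockout. Of 38 members, all of them tested, 31 rose, 1 fell and 6 did not pass, whereas with scaling by total counts 27 rose and 6 fell. Over all tested genes 74.4% passed in either direction, 37.8% as higher and 36.6% as lower (4288 and 4143 genes, against 2982 and 5597 with total-count scaling). The median log2 fold change was 0.67 for the members and 0.02 for all tested genes. Total-count scaling moved the median of all genes to -0.26 and that of the members to 0.40, and the distance between these medians was 0.66 either way. Every knockout library lay above both wild-type libraries for 32 members (42.5% of all tested genes), and below both for 2 (41% of all tested genes). When a fold above 1.5 was required, 19 members passed as higher and none as lower (17.7% and 18.8% of all tested genes). HNRNPCL4 passed the filter on low counts only through the knockout, where it is high, so its call carries no weight, and 30 of the other 37 members rose. The 27, 32 and 19 members given above also include HNRNPCL4. When knockout counts were thinned to the depth of the wild type, 30 of 37 tested members rose and 3 fell (3846 and 3871 of all 10514 tested genes).

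**Figure D1:**
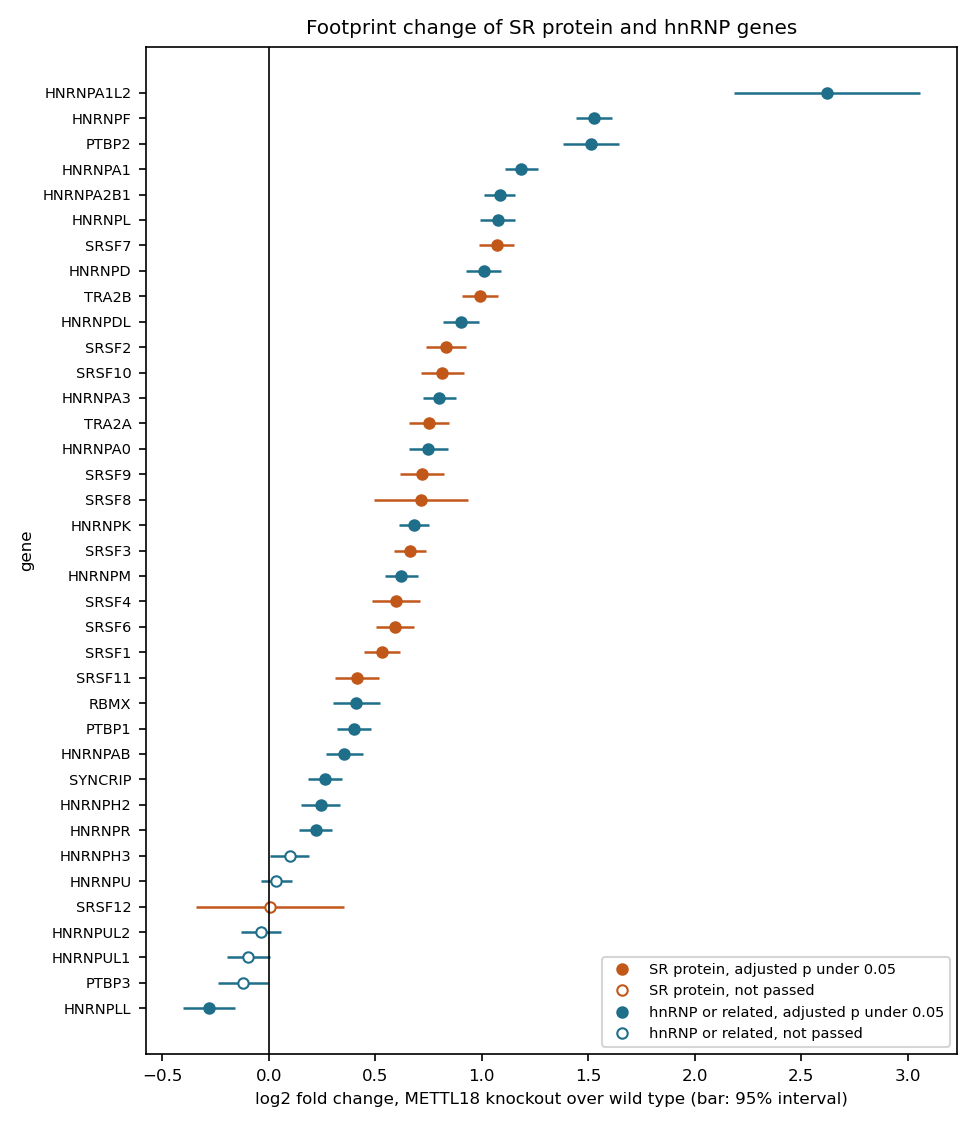
Log2 fold change of footprints, METTL18 knockout over wild type, for 37 members (HNRNPCL4, at 0 in the wild type, is left out), with 95% intervals as bars; filled points passed an adjusted p under 0.05. HNRNPA1L2 stands apart at 2.62, most genes lie between 0.2 and 1.6, and HNRNPLL is the member that fell; with total-count scaling all values shift by about -0.27, which turns the sign of HNRNPH2, HNRNPH3, HNRNPR, HNRNPU, SRSF12 and SYNCRIP.

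The families also took more of all footprints. SR protein genes held 0.437% ± 0.0011 (SD, n = 2) of all wild-type counts and 0.606% ± 0.00221 (SD, n = 3) of knockout counts. hnRNP and related genes held 1.83% ± 0.00076 (SD, n = 2) of all wild-type counts and 2.43% ± 0.0599 (SD, n = 3) of knockout counts. These shares use no TMM factor, but dividing by all counts of a library is itself scaling by total counts. Wild-type and knockout libraries did not overlap in either, and the exact two-sided permutation test gave p = 0.2 for each, the smallest value that 10 arrangements of 5 libraries allow.

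Among SR proteins, 12 of 13 rose, none fell and SRSF12 did not pass, with the same counts under total-count scaling (median log2 fold change 0.71). Over all 11335 tested genes 37.8% rose and 36.6% fell, and with total-count scaling 2982 rose and 5597 fell. SRSF7, which also helps export mRNA from the nucleus, showed the largest rise of the family. It was counted at 424 and 409.6 CPM in wild-type cells and 858, 879.6 and 888 CPM in knockout cells, a log2 change of 1.07 (SE 0.0415, adjusted p = 3.7e-25, edgeR; transcript on hg38 chromosome 2, 38743599 to 38751494, minus strand). Each knockout value was at least 2 times either wild-type value. Its close relative SRSF3, a small SR protein and also an export adaptor, went from 799.7 ± 4.37 to 1265 ± 14.9 CPM (log2 fold change 0.66).

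TRA2B, an activator that binds purine-rich exons, stood at 424 and 442 CPM in wild-type cells and 846, 859 and 874 CPM in knockout cells (log2 fold change 0.99, adjusted p = 5.08e-24, edgeR). TRA2A, its paralog, stood at 204 and 211 CPM in wild-type cells and 349, 348 and 351 CPM in knockout cells (log2 fold change 0.75). The groups were far apart for both, and the 3 knockout values of TRA2A lay within 3 CPM of one another. SRSF2, which acts on enhancers and is mutated in myeloid neoplasms, stood at 373 and 349 CPM in wild-type cells and 666, 607 and 658 CPM in knockout cells (log2 fold change 0.83). SRSF8, a retrocopy of SRSF2, was low, at 17.2 and 18.5 CPM in wild-type cells and 29.98, 28.0 and 29.7 CPM in knockout cells (log2 fold change 0.71). SRSF10, whose dephosphorylated form represses splicing after heat shock, rose from 164 ± 2.07 to 289 ± 8.44 CPM (log2 fold change 0.81).

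The founding SR protein SRSF1, an enhancer of 5′ splice site choice that also acts in translation, stood at 553 and 514 CPM in wild-type cells and 780.4, 777 and 754 CPM in knockout cells. Its log2 fold change was 0.53 (adjusted p = 6.6e-15, edgeR), and the lowest knockout library was above the highest wild-type one. SRSF9, a shorter relative of SRSF1, rose from 191 ± 7.22 to 314 ± 14.4 CPM (log2 fold change 0.72). SRSF4 and SRSF6, which share a long arginine and serine tail, rose by nearly the same amount, 0.60 and 0.59 on the log2 scale. SRSF11, an SR-related protein, had the smallest rise that passed in this family, 0.41, from 218 ± 13.7 CPM. SRSF12, a repressor related to SRSF10, stood at 8.59 and 8.23 CPM in wild-type cells and 8.78, 9.15 and 7.42 CPM in knockout cells. Its groups overlapped, and its interval of -0.34 to 0.35 on the log2 scale leaves room for a change in either direction.

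Among the hnRNPs that carry paired RNA recognition motifs and a glycine-rich tail (the A/B and D groups), all measured members rose. HNRNPA2B1, which also sorts RNA into vesicles and granules, had the highest level per coding length of the set. It stood at 1923 and 1917 CPM in wild-type cells and 3979.8, 4266 and 3961 CPM in knockout cells, a log2 change of 1.08 (SE 0.0366, adjusted p = 2.78e-27, edgeR; transcript on hg38 chromosome 7, 26191844 to 26200746, minus strand). All of its 28-base windows were found at no other locus. HNRNPA1, the classical repressor of exons opposed by SRSF1, stood at 1045 and 1085 CPM in wild-type cells and 2452, 2484 and 2325 CPM in knockout cells, a log2 change of 1.18 (adjusted p = 5.32e-28, edgeR). The groups did not overlap, and the uncertainty from its pseudogenes applies.

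HNRNPA1L2, the single-exon copy, had 17 and 11 counts in wild-type libraries and 211, 240 and 264 in those of the knockout. Its CPM values were 2.86 and 2.01 against 13.9, 14.7 and 16.8 (log2 fold change 2.62, adjusted p = 3.1e-14, edgeR). As a percentage of the HNRNPA1 counts of the same library this was 0.274% and 0.185% in wild-type cells, and 0.568%, 0.594% and 0.720% in those without METTL18. So its counts rose by more than those of HNRNPA1, while staying below 1% of them. In its coding sequence, 62.4% of 28-base windows also lie in HNRNPA1 transcripts, so how many of these reads came from HNRNPA1L2 is not known.

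HNRNPD (also called AUF1), which binds AU-rich elements and promotes decay of the mRNAs that carry them, stood at 900.3 and 925 CPM in wild-type cells and 1854, 1928 and 1725 CPM in knockout cells, a log2 change of 1.01. Its neighbour and paralog HNRNPDL rose from 667 ± 7.47 to 1246 ± 59.4 CPM (log2 fold change 0.90). In these the groups were far apart, and knockout replicate 3 was the lowest of the knockout libraries for both. HNRNPA3, an A/B protein linked to RNA transport, rose by 0.80 on the log2 scale, and HNRNPA0, an intronless member that binds AU-rich elements, by 0.75. HNRNPAB rose least of this group, from 610.4 ± 0.0865 to 781 ± 49.9 CPM (log2 fold change 0.35), and with total-count scaling its value was 0.08 and did not pass (adjusted p = 0.0782, edgeR).

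The F/H group, which binds runs of guanine, was split. HNRNPF had the largest change of any member above 100 CPM in the wild type. It stood at 507 and 473 CPM in wild-type cells and 1436, 1439 and 1358 CPM in knockout cells, a log2 change of 1.53 (SE 0.0422, adjusted p = 2.44e-30, edgeR; transcript on hg38 chromosome 10, 43385617 to 43408882, minus strand). Each knockout value was more than 2 times either wild-type value, and 98.4% of its windows were found at no other locus. HNRNPH2, encoded on the X chromosome, rose by only 0.24, and its sign turned with total-count scaling (-0.03). HNRNPH3 stood at 419 and 425 CPM in wild-type cells and 452, 477 and 426 CPM in knockout cells, so that 1 knockout library lay within 1 CPM of a wild-type one. Its log2 fold change of 0.10 did not pass (adjusted p = 0.0506, edgeR). It did pass as higher when METTL18 knockout replicate 3 was left out (0.13, adjusted p = 0.00487, edgeR) and with the replicate number as a block (0.14, adjusted p = 0.000995, edgeR), with no filter on low counts (0.12, adjusted p = 0.00873, edgeR), and as lower with total-count scaling (-0.17).

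HNRNPL and HNRNPLL, paralogs that bind CA-rich RNA, parted. HNRNPL, which controls splicing of many transcripts including its own, stood at 525 and 514 CPM in wild-type cells and 1092, 1095 and 1092 CPM in knockout cells, a log2 change of 1.07 (adjusted p = 6.33e-26, edgeR). Its 3 knockout libraries agreed within 3 CPM. HNRNPLL, known for switching CD45 isoforms in lymphocytes, stood at 99.8 and 105 CPM in wild-type cells and 85.2, 82.7 and 85.0 CPM in knockout cells. Every knockout value was below both wild-type values, a log2 change of -0.28 (SE 0.0605, adjusted p = 6.74e-05, edgeR; transcript on hg38 chromosome 2, 38561978 to 38602966, minus strand). It was the member that fell, and all of its 28-base windows were found at no other locus, against 60.2% of those of HNRNPL.

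The polypyrimidine tract binding proteins also differed in direction. PTBP1, the widely expressed repressor, stood at 741 and 723 CPM in wild-type cells and 993, 940.4 and 963 CPM in knockout cells (log2 fold change 0.40, adjusted p = 4.69e-12, edgeR). PTBP2, known as the neural paralog and kept low elsewhere by PTBP1, stood at 52.2 and 54.7 CPM in wild-type cells and 149, 154 and 154 CPM in knockout cells (log2 fold change 1.51, SE 0.065, adjusted p = 1.39e-23, edgeR; transcript on hg38 chromosome 1, 96721822 to 96814793, plus strand). PTBP2 was nearly 3 times as high in each knockout library, and PTBP1 rose in the same libraries. PTBP3, known from blood cell differentiation, stood at 115 and 121 CPM in wild-type cells and 105, 112 and 109 CPM in knockout cells. All its knockout values were below both wild-type values, but the log2 fold change of -0.12 just missed the threshold (adjusted p = 0.053, edgeR). It passed as lower under 7 of 15 alternatives, among them RLE factors (-0.13, adjusted p = 0.0378), without METTL18 knockout replicate 2 (-0.15, adjusted p = 0.0337) and the replicate block (-0.13, adjusted p = 0.0384), all edgeR.

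HNRNPK, a KH-domain protein that binds C-rich RNA and DNA, stood at 1591 and 1610.1 CPM in wild-type cells and 2556, 2598 and 2549 CPM in knockout cells (log2 fold change 0.68). HNRNPM, which binds GU-rich RNA, rose from 773 ± 21.1 to 1190.1 ± 22.1 CPM (log2 fold change 0.62). The groups did not overlap in either gene. HNRNPR and SYNCRIP (also called HNRNPQ), paralogs with roles in mRNA transport and stability, rose by 0.22 and 0.26, and with total-count scaling these values were -0.05 and -0.01 and did not pass. RBMX, an X-linked protein of splicing and chromatid cohesion, rose from 121 ± 4.75 to 161 ± 1.65 CPM (log2 fold change 0.41). Its row is a transcript with 588 coding bases, and 60.2% of its 28-base windows are shared with the retrocopy RBMXL1. RBMXL1 stood at 277 ± 4.07 and 272 ± 1.68 CPM and did not pass (adjusted p = 0.624, edgeR; named for this sharing after its value was seen).

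The U group, large scaffold proteins with SAP and SPRY domains, did not pass. HNRNPU (scaffold attachment factor A), which binds chromatin-associated RNA, stood at 2305 and 2349 CPM in wild-type cells and 2438, 2421 and 2293 CPM in knockout cells. Knockout and wild-type values overlapped, with an interval of -0.04 to 0.11 on the log2 scale (adjusted p = 0.376, edgeR). HNRNPUL1 had a log2 change of -0.10 (-0.20 to 0.00) and HNRNPUL2 of -0.04 (-0.13 to 0.06). With total-count scaling all 3 passed as lower, at -0.24 for HNRNPU, -0.37 for HNRNPUL1 and -0.31 for HNRNPUL2. HNRNPUL1 also passed as lower without METTL18 knockout replicate 1 (-0.15, adjusted p = 0.00273, edgeR), with the knockout thinned to the wild-type depth (-0.14, adjusted p = 0.00951), with upper-quartile factors (-0.14, adjusted p = 0.0114) and with a mean CPM of at least 10 (-0.16, adjusted p = 0.00561).

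HNRNPCL4, an intronless relative of HNRNPC, had 0 counts in both wild-type libraries and 16, 16 and 8 in the knockout. Taking 3 counts over both wild-type libraries together as the floor (0.263 CPM), its pooled knockout level of 0.848 CPM was at least 3.22-fold higher. Its transcript was not matched in GENCODE release 29, so the windows it shares with HNRNPC were not counted.

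Members were also counted by how much sequence they share. Among the 20 members with at least 95% of their 28-base windows at no other locus, a limit set after the values were seen, 13 rose, 1 fell and 6 did not pass (median log2 fold change 0.61). All 17 members under that limit rose (median 0.68), and the difference between these groups was not tested. Over all tested genes 37.8% rose and 36.6% fell. With total-count scaling HNRNPR, HNRNPH2, SYNCRIP and HNRNPAB, all under that limit, did not pass. The 6 members that then passed as lower were all at or above it: HNRNPH3, HNRNPLL, HNRNPU, HNRNPUL1, HNRNPUL2 and PTBP3. With that scaling 2982 of all 11335 tested genes rose and 5597 fell. The limit takes in pseudogenes. Against only the coding sequences of the counted transcripts, the members under 95% were HNRNPA1, HNRNPA1L2 and RBMX. The part of shared reads in these changes was not tested.

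Per kilobase of coding length, the order of the genes was led in both genotypes by HNRNPA2B1 (1877 ± 3.51 CPM per kb in the wild type, then 3978 ± 167 in the knockout) and SRSF3 (1625 ± 8.87 and 2572 ± 30.2 CPM per kb). HNRNPK and HNRNPA1 followed in the wild type, at 1149.8 ± 9.79 and 1109 ± 29.9 CPM per kb, which differ by less than 2 SD of HNRNPA1. In the knockout HNRNPA1 (2521 ± 87.2 CPM per kb) stood well above HNRNPK (1845 ± 19.2 CPM per kb) and level with SRSF3. HNRNPF moved from rank 19 to rank 8 of 37, whereas HNRNPU moved from rank 5 to rank 12 with almost the same level, 963 ± 12.9 and 986 ± 32.9 CPM per kb. The lowest levels in the wild type were those of PTBP2, SRSF8, SRSF12 and HNRNPA1L2. Among SR proteins SRSF1 came after SRSF3 in the wild type (717 ± 37.8 CPM per kb), and in the knockout (1036 ± 19.6 CPM per kb) it also came after SRSF7 (1226 ± 21.9 CPM per kb).

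**Figure D2:**
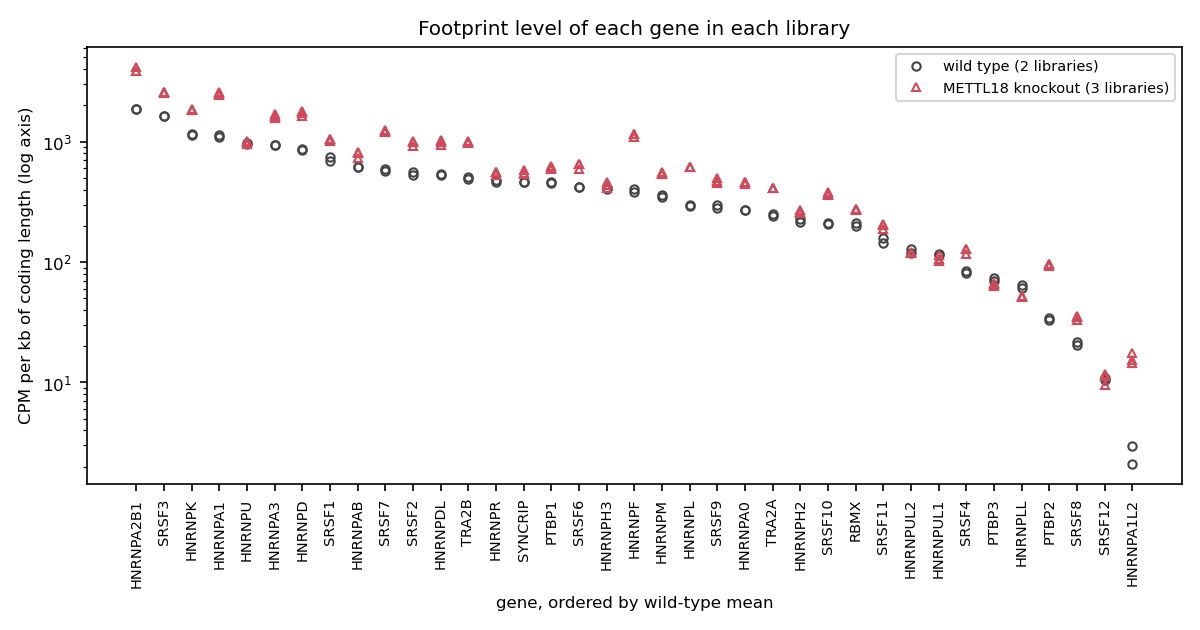
Footprint level in CPM per kb of coding length (log axis) of 37 members in each of 5 libraries, circles for wild type and triangles for METTL18 knockout, ordered by the wild-type mean. Libraries of a genotype lie close together, and knockout values are above wild-type values for most genes, with HNRNPF and PTBP2 moved the most among those above 30 CPM per kb; under total-count scaling all knockout values are lower by about 0.27 on the log2 scale relative to the wild type.

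A ratio between paralogs within a library does not depend on scaling. Of 14 measured pairs, listed by known homology, 11 had no overlap between wild-type and knockout libraries, where single genes had none in 42.5% (knockout above) and 41% (knockout below) of all tested genes, so this count is near the background. For single values in 2 against 3 libraries an exact two-sided permutation test cannot go below p = 0.2, so these ratios are given without a p. PTBP2 over PTBP1, per coding length, was 0.0705 and 0.0756 in wild-type libraries and 0.150, 0.164 and 0.160 in knockout libraries, a difference of 1.11 in the log2 ratio. The neural paralog thus gained on PTBP1 in every knockout library, as a ratio. HNRNPLL over HNRNPL was 0.207 and 0.223 in wild-type libraries and 0.0847, 0.0821 and 0.0845 in knockout libraries (-1.36). PTBP3 over PTBP1 was 0.150 and 0.162 in wild-type libraries and 0.102, 0.114 and 0.109 in knockout libraries (-0.52).

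Within the SR family, SRSF10 over SRSF12 was 18.9 and 20.1 in wild-type libraries and 32.5, 32.4 and 37.8 in knockout libraries (0.81), with few counts for SRSF12. SRSF3 over SRSF7 was 2.72 and 2.84 in wild-type libraries and 2.12, 2.11 and 2.07 in knockout libraries (-0.41). TRA2A over TRA2B shifted by -0.24 and SRSF1 over SRSF9 by -0.19, both without overlap. Other pairs kept close to their wild-type balance. SRSF4 over SRSF6 differed by 0.01, SYNCRIP over HNRNPR by 0.04 and SRSF2 over SRSF8 by 0.12, and in these 3 the groups overlapped. HNRNPA1 over HNRNPA2B1 (0.10) and HNRNPD over HNRNPDL (0.11) shifted slightly upward, HNRNPA3 over HNRNPA2B1 (-0.28) and HNRNPUL1 over HNRNPU (-0.13) downward, without overlap.

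**Figure D3:**
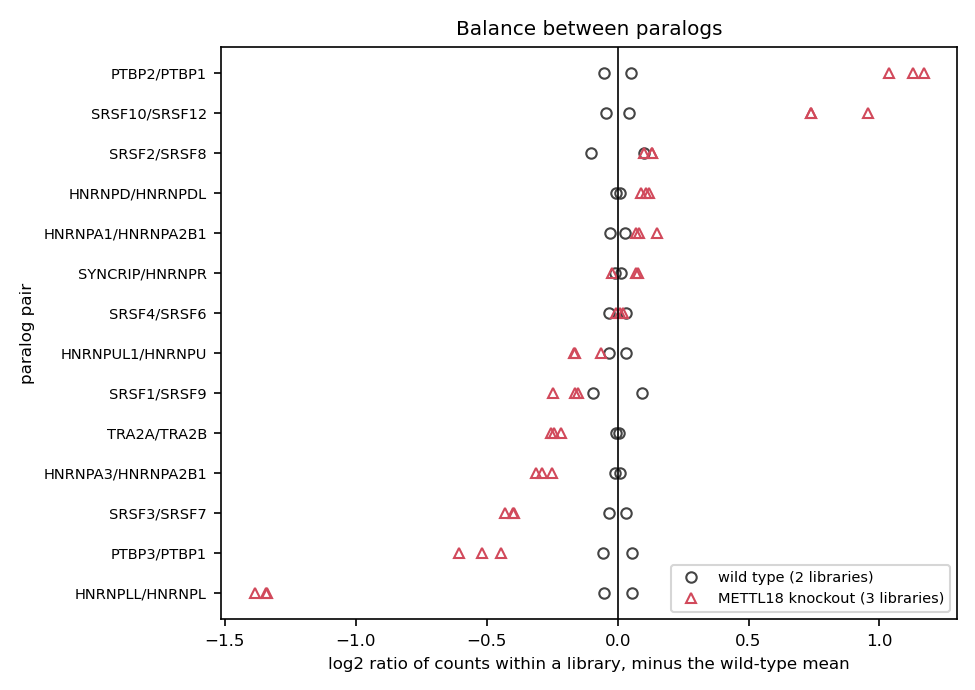
Log2 ratio of counts between 14 pairs of paralogs in each library, minus the mean of the 2 wild-type libraries, with circles for wild type and triangles for METTL18 knockout. PTBP2/PTBP1 (1.11) and HNRNPLL/HNRNPL (-1.36) lie farthest from 0, while SRSF4/SRSF6 stays at 0.01.

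Change and coding length were also set side by side. Across 37 members the log2 fold change and coding length had Pearson r = -0.39 and Spearman rho = -0.38, and across 11284 tested genes with a coding length r = -0.12 and rho = -0.17. These are descriptions across genes that share the same 5 libraries. All 6 members of up to 777 coding bases rose (median 0.69), where 47% of the 2268 tested genes of that length rose (median 0.20). Of 14 members above 777 and up to 1209 bases 12 rose (median 0.78), against 38.9% of 2257 genes (median 0.07). Of 10 members above 1209 and up to 1683 bases 8 rose (median 0.50), against 38.7% of 2246 genes (median 0.03). Among members the class above 777 and up to 1209 bases had the highest median. The part of coding length in the change was not tested. Of 6 members above 1683 and up to 2565 bases 4 rose (median 0.24), against 36.2% of 2257 genes (median -0.01). HNRNPUL1, at 2568 bases, was the sole member in the longest class, in which 28.5% of 2256 genes rose (median -0.26). With total-count scaling every median is lower by about 0.27.

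The members are abundant, and tested genes above 300 CPM in the wild type rose more often than those below. Of 16 members between 300 and 1000 CPM in the wild type, 15 rose with a median of 0.64, where the median of all 480 tested genes at that level was 0.17 and 52.5% rose. Above 1000 CPM, 4 of 5 members rose with a median of 0.80, against 0.41 and 69.2% for 117 genes. Between 100 and 300 CPM, 8 of 12 members rose (median 0.41), against -0.02 and 41% for 1396 genes. Between 10 and 100 CPM 36.6% of 5631 genes rose (median -0.02), and up to 10 CPM 35.7% of 3660 genes (median 0.10). Wild-type CPM and log2 fold change had Spearman rho = -0.06 across 11284 tested genes and 0.12 across 37 members. The GC content of the coding sequence showed a rank correlation with the log2 fold change of 0.08 across members.

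**Figure D4:**
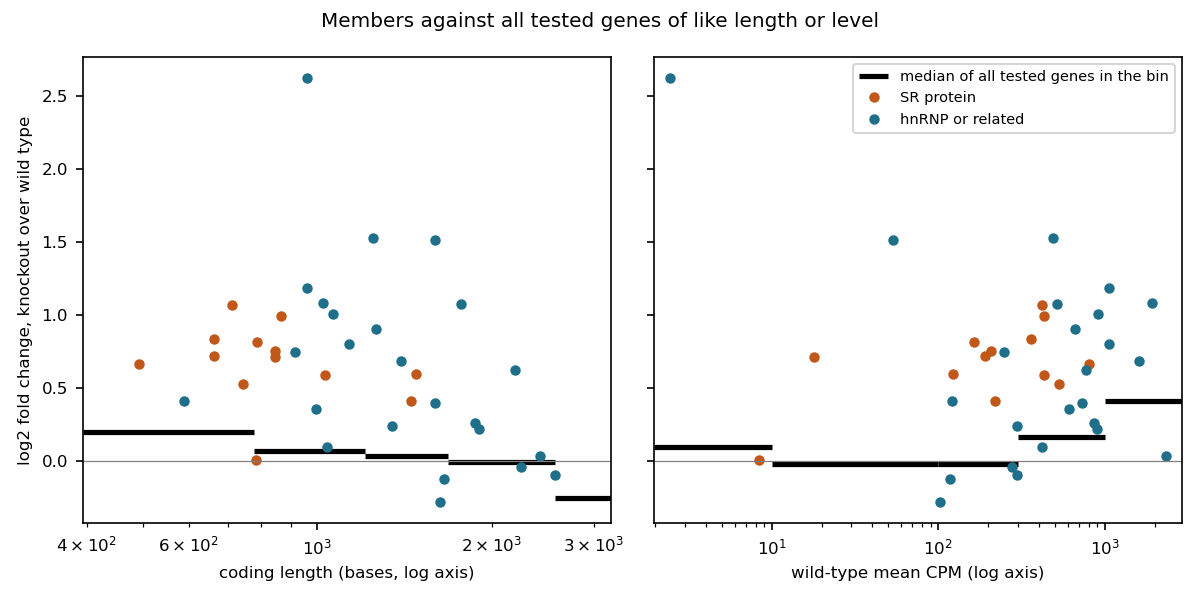
Log2 fold change, METTL18 knockout over wild type, of 37 members against coding length (left) and wild-type mean CPM (right), both on log axes, with the median of all tested genes in each bin as black lines. Most members lie above the line for their own length or level; total-count scaling lowers points and lines by about 0.27 alike.

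Positions set 2 contrasts side by side. HNRNPLL and SRSF7 lie 141 kb apart on chromosome 2 and moved in opposite directions (-0.28 and 1.07). HNRNPD and HNRNPDL lie 48.6 kb apart on chromosome 4 and both rose (1.01 and 0.90). HNRNPR and SRSF10, 626 kb apart on chromosome 1, rose by 0.22 and 0.81.

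Promoter windows, 250 bases before to 50 after each start in RefSeq (GRCh38.p14), were found for 35 members, some with several starts, and a gene counts once if any of its windows holds a motif on either strand. GCCATNTT, the core of the motif of YY1, a zinc-finger factor that binds at many start sites, occurred in 6 of 35 members (17.1%) and in 7.97% of 27305 symbols. CACGTG, the E-box bound by MYC and other factors, occurred in 8 members (22.9%, against 8.77%), and CCAAT, the NF-Y box, in 19 (54.3%, against 39.7%). The 27305 symbols are all those with a promoter window, whether or not they were tested here. They were not matched to the members for level or number of starts, so these percentages are not a like comparison. Within 30 bases of the start the first motif lies in HNRNPCL4, HNRNPD, HNRNPM, HNRNPUL1 and SRSF1. Its first base is at position 1 (the start itself) in SRSF1, at position 5 in HNRNPD and at position -3 in HNRNPUL1. These 3 are shown as the 30 bases before and 30 after the start, with the motif in capitals.
SRSF1: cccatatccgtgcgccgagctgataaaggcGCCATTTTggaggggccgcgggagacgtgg
HNRNPD: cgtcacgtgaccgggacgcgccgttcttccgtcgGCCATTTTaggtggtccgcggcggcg
HNRNPUL1: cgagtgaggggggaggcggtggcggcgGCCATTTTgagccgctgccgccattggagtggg
These are SRSF1 (chr17:58007217-58007276, minus strand), HNRNPD (chr4:82373962-82374021, minus strand) and HNRNPUL1 (chr19:41264342-41264401, plus strand). SRSF1 (0.53) and HNRNPD (1.01) rose, while HNRNPUL1 (-0.10) did not pass. Of the other genes with the motif, HNRNPM (0.62) and PTBP1 (0.40) rose, and the call of HNRNPCL4 carries no weight. Whether the motif goes with the change was not tested. A match is a description and no site of binding.

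The partners of these proteins moved in both directions, as did all tested genes. Of all 11335 tested genes 37.8% rose and 36.6% fell, and with total-count scaling 2982 rose and 5597 fell. Of 13 tested SR protein kinases, phosphatase subunits and import receptors, 9 rose and 2 fell (median 0.31), but with total-count scaling 3 rose and 3 fell. SRPK1, the cytoplasmic SR protein kinase, rose from 212 ± 6.98 to 279.6 ± 12.0 CPM (0.40). Of the import receptors, TNPO2 rose by 0.56 and TNPO1 by 0.34, while TNPO3 fell (-0.34). TNPO1 and TNPO3 were named after their values were seen. PPP1CB, a catalytic subunit of protein phosphatase 1, fell (-0.51). Of 20 tested SR-related and exon junction proteins, 13 rose and 4 fell (median 0.54), and with total-count scaling 11 rose and 8 fell. LUC7L, which contacts the U1 particle, rose from 29.4 ± 2.24 to 118 ± 5.12 CPM (adjusted p = 6.89e-25, edgeR), the coactivator SRRM1 by 1.07 and THRAP3 by 0.95.

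Of 44 other tested sequence-specific splicing regulators, 21 rose and 15 fell (47.7% and 34.1%, median 0.14). Over all tested genes 37.8% rose and 36.6% fell, so these counts are near the background. With total-count scaling 13 of the 44 rose and 21 fell (median -0.13), against 2982 and 5597 of all 11335 tested genes. MATR3, a nuclear matrix partner of PTBP1, rose from 643 ± 4.06 to 1353 ± 16.9 CPM (1.07), and PCBP1, a C-rich binder related to HNRNPK, by 1.04. ESRP1, the epithelial splicing regulator, fell from 51.2 ± 1.22 to 9.16 ± 0.740 CPM (-2.48). Of 41 tested core spliceosome genes, 24 rose and 10 fell (median 0.31), but with total-count scaling 17 rose and 17 fell. SNRNP70, the U1 protein that SR proteins contact, rose from 119 ± 5.85 to 469 ± 22.3 CPM (1.98), SNRPD2 by 1.06 and SF3B3 by 0.92.

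Nonsense-mediated decay factors remove the poison-exon isoforms. Of 9 tested, 2 rose and 5 fell (median -0.28), against 37.8% higher and 36.6% lower over all tested genes. With total-count scaling 2 rose and 7 fell, against 2982 and 5597 of all 11335 tested genes. The kinase SMG1 fell from 172 ± 2.13 to 98.0 ± 1.91 CPM (-0.81) and SMG5 by 0.97 on the log2 scale, while the helicase UPF1 rose by 0.65. Of 11 arginine methyltransferases and cofactors, whose substrates include the glycine and arginine repeats of hnRNPs, 3 rose and 3 fell (median 0.00), and with total-count scaling 3 rose and 8 fell. CLNS1A (1.37) and WDR77 (0.95), partners of PRMT5 in Sm protein methylation, rose, as did PRMT9 (1.01). PRMT5 itself (0.07) and PRMT1 (-0.08), named after their values were seen, did not pass. Whether these lists differ from the SR proteins and hnRNPs was not tested.

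**Figure D5:**
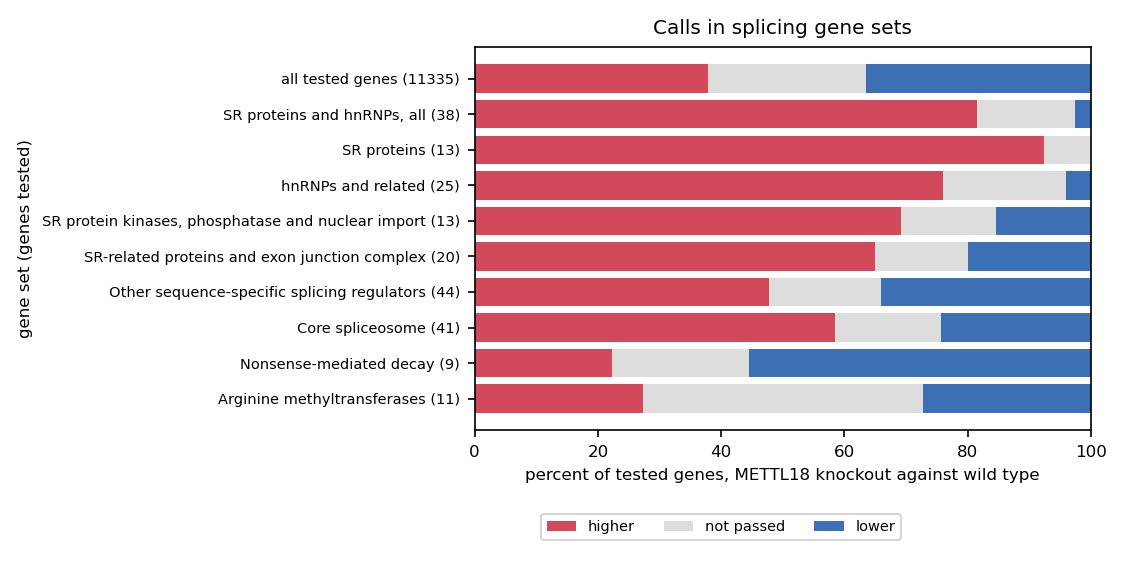
Percent of tested genes called higher (red), not passed (grey) and lower (blue) in the METTL18 knockout for the 2 families and 6 further splicing gene sets, beside all 11335 tested genes. SR proteins show 92.3% higher and hnRNPs 76%, against 37.8% of all tested genes. With total-count scaling 12 of 13 SR proteins stay higher and 15 of 25 hnRNPs. The hnRNP counts include HNRNPCL4, whose call carries no weight. In the core spliceosome as many genes then fall as rise, where 5597 of all tested genes fall and 2982 rise.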

How the data were processed

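Ribosome footprints of 28 to 32 bases were sequenced from 2 wild-type and 3 METTL18 knockout HAP1 libraries. The values are raw counts for each transcript and gene symbol, as deposited by the authors in a single table. Bowtie and hg38 are named in the submitters' processing notes. For the counter, its annotation and reads with several matches, details were not given in the sources used here. All count columns were mapped to samples by their names.

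Counts were fitted with edgeR 4.0.16 (R 4.3.3, limma 3.58.1), with TMM factors, robust quasi-likelihood dispersions and the filter on low counts (minimum count 10, minimum total 15), which kept 11335 of 14084 rows. Adjusted p-values are Benjamini-Hochberg values over all 11335 rows, with 0.05 as threshold. Standard errors are the log2 fold change divided by the square root of F, and intervals are 95%. Ratios and shares were computed within each library with Python 3.11.15, pandas 2.3.3 and SciPy 1.17.1. Coding lengths, positions and coding sequences came from GENCODE release 29 (GRCh38), in which 37 of 38 members were matched by transcript, and promoters from RefSeq on GRCh38.p14. The statistics were tested on simulated counts. In those for edgeR a small part of the genes changed, unlike here, so that test does not bear on the choice of scaling. Depth was 4887380 to 17629199 counts per library, and counting error is smallest for the knockout.

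All members were named, with METTL18 and, from each further list, the 3 tested genes with the smallest adjusted p. Members and lists were chosen with earlier results of these data known. Alternatives were other scaling factors, total counts alone, DESeq2 1.42.0, limma-voom, other filters, a required fold of 1.5, the replicate number as a block, thinned knockout libraries and each library left out in turn. The sequence of 1 coding stretch is not reported here.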

Additional observations from a re-analysis of the deposited data

How the results depend on the processing

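Of 563 log2 fold changes of members across the alternatives, 517 kept their direction and their side of the threshold. A required fold of 1.5 left 19 members higher, HNRNPCL4 among them, and 0 lower (2011 and 2129 of all tested genes). The count of lower members was 2 with RLE factors, 3 with upper-quartile factors, 6 with total-count scaling, 3 with a mean CPM of at least 10 and 3 with thinned knockout libraries, and leaving out each library gave 1 to 2. Values near 0 turned with total-count scaling for SYNCRIP (-0.0094), HNRNPH2 (-0.0293), HNRNPR (-0.0514), HNRNPH3 (-0.1744), HNRNPU (-0.2372) and SRSF12 (-0.2651). HNRNPU was also at -0.0079 with upper-quartile factors and -0.0246 with a mean CPM of at least 10. SRSF12 was also at -0.0029 with RLE factors, -0.0359 with upper-quartile factors, -0.0027 with DESeq2, -0.0084 with limma-voom and between -0.0616 and 0.087 when libraries were left out. HNRNPUL2 then ranged from -0.0982 to 0.0192. The cause of these turns was not tested. With the replicate number as a block, 32 members were higher and 2 lower, against 4322 and 4154 of all tested genes. Same-numbered libraries had deviations that correlated at 0.00853 and 0.0231, so the numbers are not taken to pair them. Where a wild-type library was left out, the remaining one is assumed to vary like the knockout libraries. Depth limits SRSF12, HNRNPA1L2 and HNRNPCL4, which had the fewest counts.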
